A study of Mus musculus with 4 samples.

Results

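Replication-dependent histone genes encode the proteins that package newly copied DNA. In these data they are the 62 gene names beginning Hist1h to Hist4h that had at least 20 unique molecular identifiers (UMIs, tags that mark a captured mRNA molecule) over 4 single-cell libraries, out of 31053 genes and 67 names of that form. By type, 6 encode the linker histone H1, 16 encode H2a, 16 encode H2b, 12 encode H3 and 12 encode H4. Just inside the limit were Hist1h1t with 41 UMIs and Hist2h3c2 with 56. The names left out were Hist2h2aa2 with 7 UMIs, Hist1h4m with 5, Hist1h2ba with 4, Hist1h2bq with 1 and Hist1h2aa with 0.

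The libraries hold donor T cells sorted as PI- H-2Kb+ TCRb+ from spleens of BALB/c recipients taken on day 8 of graft-versus-host disease. All recipients were irradiated with 900 cGy and received T cell-depleted bone marrow from CD45.1+ CD45.2+ wild-type C57BL/6 mice. They also received regulatory T cells (Treg cells, sorted as CD4+ Foxp3-GFP+ CD25hi, CD45.2+ CD45.1-) and, 2 days later, CD4+ and CD8+ conventional T cells that were wild type and CD45.2- CD45.1+ in every group. Only the genotype of the transferred Treg cells differed: CD226+/+ TIGIT+/+ (the wild-type library), CD226-/- TIGIT+/+, CD226+/+ TIGIT-/- and CD226-/- TIGIT-/- (the double-knockout library). CD226 is an activating receptor of T cells and TIGIT an inhibitory receptor that shares its ligands. Each genotype is 1 library, labelled as a pool of 3, so no test between genotypes was made, and n = 4 libraries for the comparisons of cell classes made within them. The wild-type and CD226-/- libraries carry the lane tag 3 and both TIGIT-/- libraries the tag 4, so TIGIT status and the tag cannot be told apart. Values for the 4 libraries are given below in the order wild type, CD226-/-, TIGIT-/- and double knockout.

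Of 39421 barcodes, 36140 passed the cell filter, with 7654, 9045, 10383 and 9058 cells. Cells were classed by the log2 ratio of the CD45.1 to the CD45.2 antibody count. A ratio below -0.6 gave 367, 332, 462 and 376 Treg-origin cells. A ratio above 2.2 with more Cd4 than Cd8a and Cd8b1 UMIs gave 2750, 3098, 3100 and 2813 conventional CD4 cells, and the reverse gave 2098, 2600, 2902 and 3415 conventional CD8 cells. Their median depth was 3922 to 5372 UMIs per cell in Treg-origin, 7040 to 9013 in conventional CD4 and 8887 to 11901 in conventional CD8 cells. The classes carried their defining markers: Foxp3, the lineage factor of Treg cells, was at 54.6, 64.1, 47.3 and 58.1 CPM (a gene's UMIs scaled to a fixed total of all UMIs of the class) in Treg-origin cells and at 2.26, 1.52, 1.47 and 1.18 CPM in conventional CD4 cells. Of the kept barcode sequences, 131 occurred in more than 1 library.

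Histone mRNAs of this kind are made when DNA is copied and are destroyed when copying ends. Their transcription is driven by a coactivator, NPAT, in nuclear bodies beside the histone gene clusters, and most of the mRNAs end in a conserved stem-loop, bound by the protein SLBP, in place of a poly(A) tail. The libraries were made from polyadenylated RNA, per the labels, so the counts are those of the molecules that were captured, and how capture differs between members was not tested. For that reason, levels of different members are not ranked here. The method that assigned reads between near-identical copies is not given in the sources used here.

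The genes lie in clusters. In GENCODE M21 (mouse build GRCm38), 50 members lie on chromosome 13, 21 of them within chr13:21715763-22043676 and 29 within chr13:23531050-23764406. Another 9 lie within chr3:96219865-96270132, 2 within chr11:58948920-58956830, and Hist4h4 lies at chr6:136801553-136804415. An annotated transcript of 44 of the 62 members (71.0%) held the stem-loop, against 33 of 30872 other genes (0.107%). Several of the 18 without it have short annotated transcripts, such as Hist1h2ai with 393 bases and Hist1h4k with 312. A stem-loop or poly(A) signal beyond an annotated end could not be found, so these shares describe the annotation. The following stem-loops are shown because the H4 forms differ from those of the other types. The distance to the annotated 3′ end also differs among the members that carry most UMIs. Capitals mark the stem-loop, in the sense strand, with up to 5 bases on either side, and the coordinates are those of the capitals.
Hist1h1e: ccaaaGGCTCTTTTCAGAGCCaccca
Hist1h2ap: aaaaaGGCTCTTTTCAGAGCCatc
Hist1h2ae: acaaaGGCTCTTTTCAGAGCCattca
Hist1h2bj: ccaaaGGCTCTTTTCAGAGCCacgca
Hist1h3e: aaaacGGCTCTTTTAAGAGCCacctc
Hist1h4d: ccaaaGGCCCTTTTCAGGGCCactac
Hist1h4i: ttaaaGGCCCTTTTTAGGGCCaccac
Hist3h2a: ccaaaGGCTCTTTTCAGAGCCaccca

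They lie at chr13:23621782-23621797 (Hist1h1e, minus strand), chr13:21833029-21833044 (Hist1h2ap, minus), chr13:23570668-23570683 (Hist1h2ae, minus), chr13:22043638-22043653 (Hist1h2bj, plus), chr13:23561903-23561918 (Hist1h3e, minus), chr13:23581950-23581965 (Hist1h4d, plus), chr13:22040966-22040981 (Hist1h4i, minus) and chr11:58955172-58955187 (Hist3h2a, plus). The form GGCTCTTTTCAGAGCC stood in 3 H1, 9 H2a, 8 H2b and 5 H3 members, and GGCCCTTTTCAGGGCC in 6 H4 members. The form printed for Hist1h3e stood in 3 H3, 2 H2b and 1 H1 members, so it is not particular to H3. The annotated transcript ran on for 3 bases after the stem-loop in Hist1h2ap, 23 in Hist1h2bj, 151 in Hist1h2ae, 330 in Hist1h4i, 369 in Hist1h3e, 770 in Hist1h4d, 1153 in Hist1h1e and 1643 in Hist3h2a. The poly(A) signal AATAAA stood in the last 40 bases of a transcript of 14 members (22.6%), Hist1h2ae and Hist3h2a among them, against 57.7% of the other genes.

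Promoters of the members also shared letters. Of the members, 57 matched a RefSeq promoter (GRCm38.p6, 250 bases before to 50 after the gene's start), and the motifs were searched on both strands. CCAAT stood in 49 of them (86.0%), against 37.9% of all promoters of the table; every H1, H2a, H2b and H3 promoter held it and 3 of 11 H4 promoters did. TATAAA stood in 32 (56.1%), against 14.2%. The octamer ATTTGCAT stood in 6 of 16 H2a and 5 of 14 H2b promoters and in no H1, H3 or H4 promoter, against 1.75% of all. AAACACA, known as the H1 box, stood in 5 of 6 H1 promoters, against 7.14% of all. The 150 bases before the start are shown for 1 member each of H1, H2a and H4, as examples of single members and not of their types. The motifs named above are in capitals where they occur on either strand.
Hist1h1b: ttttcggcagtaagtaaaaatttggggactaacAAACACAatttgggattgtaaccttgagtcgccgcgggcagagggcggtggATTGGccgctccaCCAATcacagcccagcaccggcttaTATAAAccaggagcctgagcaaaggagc
Hist1h2ap: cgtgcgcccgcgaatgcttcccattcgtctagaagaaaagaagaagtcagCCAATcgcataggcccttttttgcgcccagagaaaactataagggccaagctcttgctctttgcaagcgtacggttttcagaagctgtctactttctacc
Hist1h4d: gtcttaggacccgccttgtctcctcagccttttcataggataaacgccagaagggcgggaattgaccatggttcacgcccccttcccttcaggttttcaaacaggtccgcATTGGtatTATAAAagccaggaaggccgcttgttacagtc

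These stretches are chr13:21780626-21780775 (Hist1h1b, minus strand), chr13:21833476-21833625 (Hist1h2ap, minus) and chr13:23581418-23581567 (Hist1h4d, plus). A match describes the sequence and not a bound site.

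Histone CPM was lower in Treg-origin cells than in conventional CD4 cells of the same library, and slightly higher in conventional CD8 cells. The 62 members together made up 2830.3, 2014, 2610 and 2435 CPM in Treg-origin cells, 4265, 3567, 3543 and 3389 CPM in conventional CD4 cells and 4517, 3933, 3889 and 3754 CPM in conventional CD8 cells. The Treg-origin values lay below both conventional classes in all 4 libraries. H1 and H2a members held 44.6% and 37.8% of the 1264811 histone UMIs, H4 6.87%, H2b 5.62% and H3 5.19%. In each library, a fall in RNA per cell and a smaller share of cells making the RNA cannot be told apart from these sums.

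**Figure D1:**
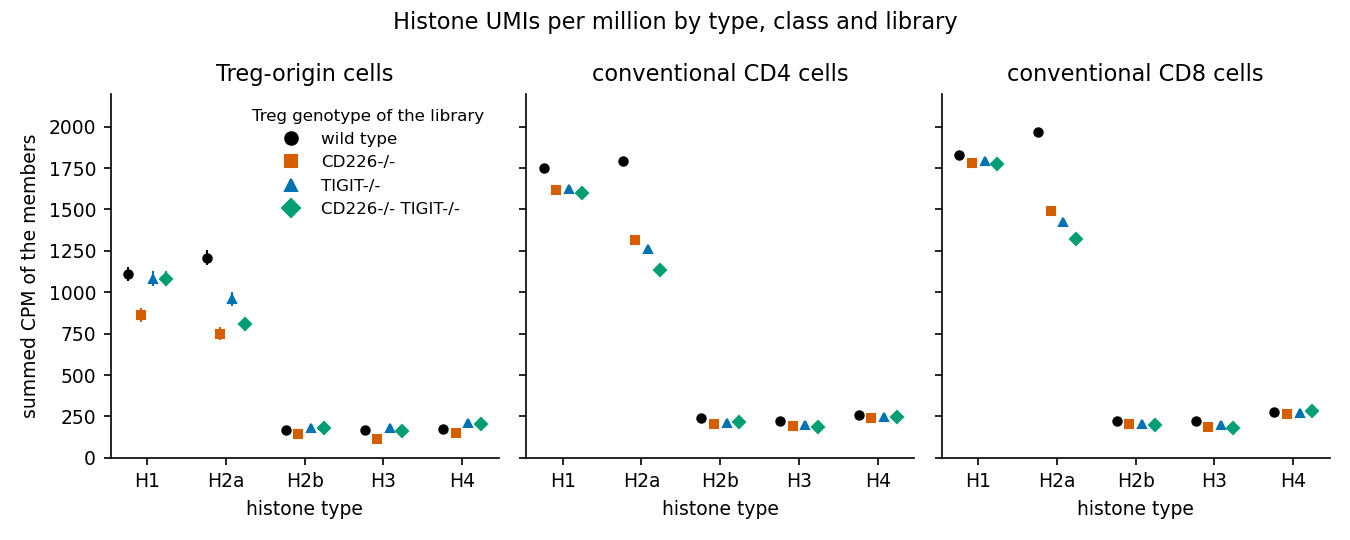
Summed CPM of the members (vertical axis) by histone type (horizontal axis) in Treg-origin, conventional CD4 and conventional CD8 cells; each point is 1 library and its bar the exact 95% Poisson interval, which holds counting error only. The Treg-origin H1 sums lie between 862 and 1111 CPM and the conventional CD4 ones between 1602 and 1747, and in each class the wild-type library is highest for H2a.

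Between Treg-origin and conventional CD4 cells, 27 of the 57 members that passed the filter on low counts fell in Treg-origin cells and none rose (edgeR quasi-likelihood test with the library as block, adjusted p of at most 0.05 over 10775 genes). Over all genes tested, 20.5% fell and 21.5% rose. The members' median log2 ratio was -0.47, against 0.01 over all genes. Of the 27, 26 were lower in all 4 libraries. The calls came from these same libraries, so this is not separate evidence. By type, the ratio of the summed CPM was lowest for H1, at -0.68 ± 0.16 on the log2 scale (SD, n = 4), followed by H2a at -0.57 ± 0.18, H4 at -0.45 ± 0.22, H3 at -0.39 ± 0.29 and H2b at -0.37 ± 0.15; these spreads overlap, and the order was not tested.

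Among the linker histones, which bind the DNA between nucleosomes, Hist1h1b stood at 635, 508, 586 and 610.5 CPM in Treg-origin cells and at 1023, 983, 1002 and 952 CPM in conventional CD4 cells. The groups did not overlap, and the fitted log2 ratio was -0.77 (SD of the library ratios 0.14, adjusted p = 4.4e-08). Hist1h1a had the largest fall of the members called: 13.9, 14.9, 19.1 and 11.2 CPM against 45.8, 40.2, 48.0 and 38.9 CPM, a log2 ratio of -1.57 (SD 0.22, adjusted p = 5.2e-08 by edgeR). Hist1h1e fell by 0.56 (SD 0.27) and Hist1h1c by 0.37 (SD 0.19) on the log2 scale. Hist1h1t, which encodes a testis form of H1, had no UMI in Treg-origin cells of any library. It had 0, 2, 5 and 0 UMIs in conventional CD4 cells, too few to compare the classes.

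Of the H2a genes, whose products pair with H2b in the nucleosome core, Hist1h2ap stood at 779, 435, 509 and 448 CPM in Treg-origin cells against 1100.1, 729, 657 and 613 CPM in conventional CD4 cells. The wild-type value of the Treg-origin cells lay above 3 of the 4 conventional CD4 values, although within each library the Treg-origin value was lower; the log2 ratio was -0.52 (SD 0.16, adjusted p = 3.3e-06 by edgeR). Hist1h2ae fell by 0.70 (SD 0.19), Hist1h2ab by 0.72 (SD 0.32) and Hist1h2af by 0.78 (SD 0.34) on the log2 scale. In H2b, Hist1h2bf fell by 1.13, but on 1 to 7 UMIs per library in Treg-origin cells and with an SD of 1.18 over libraries. Hist1h2bj, the H2b gene with most UMIs, fell by 0.25 (SD 0.26, adjusted p = 0.032 by edgeR), a difference no larger than the spread between libraries.

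Among the H3 and H4 genes, whose products form the central tetramer of the nucleosome, Hist1h3e stood at 49.9, 29.2, 43.9 and 44.9 CPM in Treg-origin cells against 69.2, 60.5, 62.5 and 58.1 CPM. These groups did not overlap, and the log2 ratio was -0.58 (SD 0.31, adjusted p = 1.7e-04 by edgeR). Hist1h4i stood at 35.6, 29.2, 40.6 and 45.9 CPM against 59.2, 58.6, 59.1 and 59.7 CPM. Its log2 ratio was -0.65 (SD 0.27), also without overlap. Hist1h4d fell by 0.47 (SD 0.23) and Hist1h4a by 0.90 (SD 0.54), the latter on 4 or 5 UMIs per library. Hist1h3c and Hist1h4h did not pass the test, with log2 ratios of -0.26 and -0.27.

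Sums over Treg-origin cells rested on few cells. For the 15 members with most UMIs, the 5 richest Treg-origin cells of a library held 12.4% to 48.0% of the UMIs (median 22.1%), against a median of 2.24% in conventional CD4 and 1.958% in conventional CD8 cells. After each cell was thinned to 2000 UMIs, a Hist1h1b UMI was found in 19.0%, 14.9%, 24.9% and 19.8% of Treg-origin cells, in 41.2%, 37.7%, 42.4% and 36.9% of conventional CD4 cells and in 53.1%, 48.6%, 56.0% and 50.6% of conventional CD8 cells. The order of the classes was the same in each library. Barcodes that failed the cell filter, for few genes or a high mitochondrial share, held histone UMIs too, at 2188 to 3154 CPM. Whether these UMIs come from damaged cells or from free RNA was not tested, nor how much free RNA the kept cells hold. Markers of other cell types also moved between libraries: the 4 neutrophil markers summed to 1717, 4.58, 1506 and 3.904 CPM in Treg-origin cells, with Ngp and Camp at 0 in at least 1 library, and the 5 erythroid markers to 43.4, 997, 16.2 and 22.4 CPM. With cells holding at least 10 UMIs of B cell, myeloid, neutrophil or erythroid markers left out, 29 of 57 members fell and none rose (21.1% of all genes fell and 21.7% rose). With stricter antibody ratios, 13 of 54 fell and none rose (14.7% of all genes fell and 16.4% rose).

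The other genes of the pathway moved with the members in this comparison. Of 14 chaperone genes, whose products carry histones to DNA, 12 fell and Daxx rose by 0.51; the subunit gene of the replication-coupled chaperone, Chaf1a, fell by 0.82, Nasp by 0.68 and the acetyltransferase gene Hat1 by 0.65 on the log2 scale. Of 13 tested genes for histone gene transcription and mRNA end processing, 7 fell, among them E2f1 by 0.33, and Lsm10 rose by 0.42. The genes listed here as replication-independent variants differed. Of 8 tested, H2afx fell by 0.94 and H1f0 rose by 0.52. The other 6, H2afz and H3f3b among them, had log2 ratios from -0.10 to 0.03 that did not pass the test. Of the 30 replication genes and the 30 mitosis genes used below to sort cells, all 30 and all 30 fell.

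To set histone levels beside the cell cycle, each cell with at least 2000 UMIs was thinned to 2000 and scored by its UMIs of 30 replication genes (such as Mcm2, Pcna and the stem-loop binding protein gene Slbp) and of 30 mitosis genes (such as Cdk1, Top2a and Mki67), none of them a member. Cells with more than 7 UMIs of the first list only formed the replication range, of the second only the mitosis range, of both lists the both range, and the rest the low range. These are ranges of 2 scores and not cell types: of 24068 cells, 3961 lay within 1 UMI of the first limit and 3124 of the second. The low range held 67.1%, 77.1%, 59.3% and 68.6% of Treg-origin cells, 36.8%, 40.9%, 35.2% and 39.99% of conventional CD4 cells and 17.2%, 23.4%, 16.7% and 19.0% of conventional CD8 cells. The both range held 6.98% to 9.92%, 17.6% to 24.8% and 30.2% to 39.1%. The mix of ranges therefore differed between the classes in the same order as the histone sums.

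Histone CPM differed far more between ranges than between classes or libraries. In conventional CD4 cells the members summed to 679, 448, 501 and 481 CPM in the low range, 2928, 2761, 2625 and 2751 in the replication range, 5424, 4356, 4156 and 4409 in the mitosis range, and 7472, 6783, 5874 and 6394 in the both range. In each library the order low, replication, mitosis, both held. The both range exceeded the low range 12.7-fold on average in conventional CD4 cells (log2 3.67 ± 0.20, SD, n = 4), 6.19-fold in conventional CD8 cells (2.63 ± 0.20) and 23.7-fold in Treg-origin cells (4.57 ± 0.17). Within conventional CD4 cells the gain was largest for H2a (4.35 ± 0.32 on the log2 scale) and H1 (3.82 ± 0.26), and smaller for H3 (2.996 ± 0.23), H4 (2.59 ± 0.12) and H2b (2.198 ± 0.08). At 1 SD on either side, the spreads of H2b, H3 and H4 did not meet those of H1 and H2a. Of the 62 members, 54 had their highest mean level in the both range and 8 in the mitosis range in conventional CD4 cells. In that class none peaked in the low or replication range. In conventional CD8 cells 45 peaked in the both, 14 in the mitosis, 2 in the replication and 1 in the low range. Treg-origin cells gave 43, 16, 1 and 2, the last with Hist1h1t, which had no UMI there. The same count was not made over all genes.

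**Figure D2:**
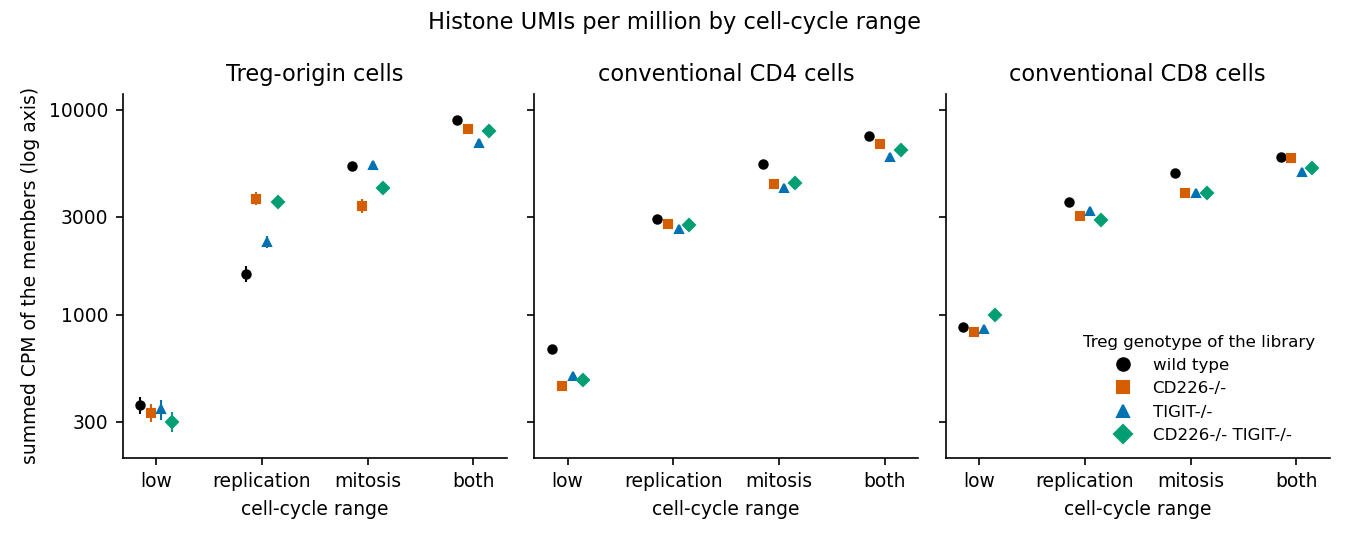
Summed CPM of the members (vertical axis, log scale) in the low, replication, mitosis and both ranges (horizontal axis) of the 3 classes; each point is 1 library with its exact 95% Poisson interval for counting error. In conventional CD4 cells the low range lies between 448 and 679 CPM and the both range between 5874 and 7472; the Treg-origin replication range spreads from 1580 to 3687 CPM.

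From the low to the replication range of conventional CD4 cells, 42 of 45 members tested rose and none fell, where 30.4% of 9880 genes rose and 30.3% fell; the members' median log2 ratio was 1.80, against -0.02 over all genes. Hist1h1a stood at 4.73, 5.26, 5.23 and 3.19 CPM in the low range and at 47.7, 48.7, 51.6 and 46.1 CPM in the replication range, a log2 ratio of 3.41 (SD 0.29, adjusted p = 2.2e-21 by edgeR). Hist1h1b rose by 3.35 (SD 0.45), Hist1h2ap by 3.33 (SD 0.49), Hist1h2an by 3.30 (SD 0.36), Hist1h2af by 3.29 (SD 0.996), Hist1h2ab by 3.11 (SD 0.65), Hist1h3b by 2.97 (SD 0.86), Hist1h2ae by 2.96 (SD 0.31) and Hist1h2bn by 2.72 (SD 0.68). Low-range counts were few for Hist1h2an, Hist1h2af, Hist1h3b and Hist1h2bn, at 28, 33, 32 and 33 UMIs over the 4 libraries. A member can pass the filter on low counts through its higher range alone, which favours a rise for such members. Their calls, counted among the 42, are therefore not separate support. The 3 members tested that did not pass were Hist1h2bc, Hist3h2ba and Hist3h2a, with log2 ratios of -0.09, -0.12 and -0.28. In conventional CD8 cells 37 of 46 members rose and none fell (25.4% of all genes rose), with a median of 1.34. In Treg-origin cells all 13 members tested rose (17.7% of all genes rose), with a median of 2.67. Only these 13 had enough UMIs. Without the low-count filter 27 of 59 rose, and the share over all genes is not given for that fit.

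From the mitosis to the replication range, most members were lower. In conventional CD4 cells 43 of 52 fell and 1 rose, where 26.8% of genes fell and 26.6% rose, and the members' median log2 ratio was -0.85. The gene that rose was Hist1h1a, at 47.7, 48.7, 51.6 and 46.1 CPM in the replication range against 40.03, 30.6, 30.4 and 29.7 CPM in the mitosis range (log2 ratio 0.57, SD 0.22, adjusted p = 1.3e-08 by edgeR). Largest among the falls was that of Hist3h2a, at 1.90, 3.01, 3.08 and 1.88 CPM against 9.80, 11.3, 9.69 and 7.70 CPM, a log2 ratio of -1.96 (SD 0.30). Hist2h3b fell by 1.57, Hist3h2ba by 1.46, Hist1h3f by 1.45, Hist1h4h by 1.45 and Hist1h4d by 1.26, while Hist1h2ap fell by 0.75 and Hist1h1b by 0.46. In conventional CD8 cells 39 of 54 fell (25.7% of all genes fell) and Hist1h1a and Hist1h3a rose, both by 0.41. In Treg-origin cells 13 of 17 fell and none rose (7.68% of all genes fell and 8.44% rose). Without the TIGIT-/- library 4 fell, and without the wild-type library 6 did. The shares over all genes are not given for these smaller fits.

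Chaperone and processing genes had the other direction in the same comparison. Of 14 chaperone genes 11 were higher in the replication than in the mitosis range of conventional CD4 cells, with Chaf1a at a log2 ratio of 1.43, and 1, Hjurp, was lower at -0.94. Of 12 genes for histone gene transcription and end processing 7 were higher and none lower, with E2f1 at 2.38, Casp8ap2 at 1.02 and Npat, the coactivator gene, at 0.77. Of the 8 variants 7 were lower, H2afx by 2.48 among them, and H2afj was higher by 0.10.

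**Figure D3:**
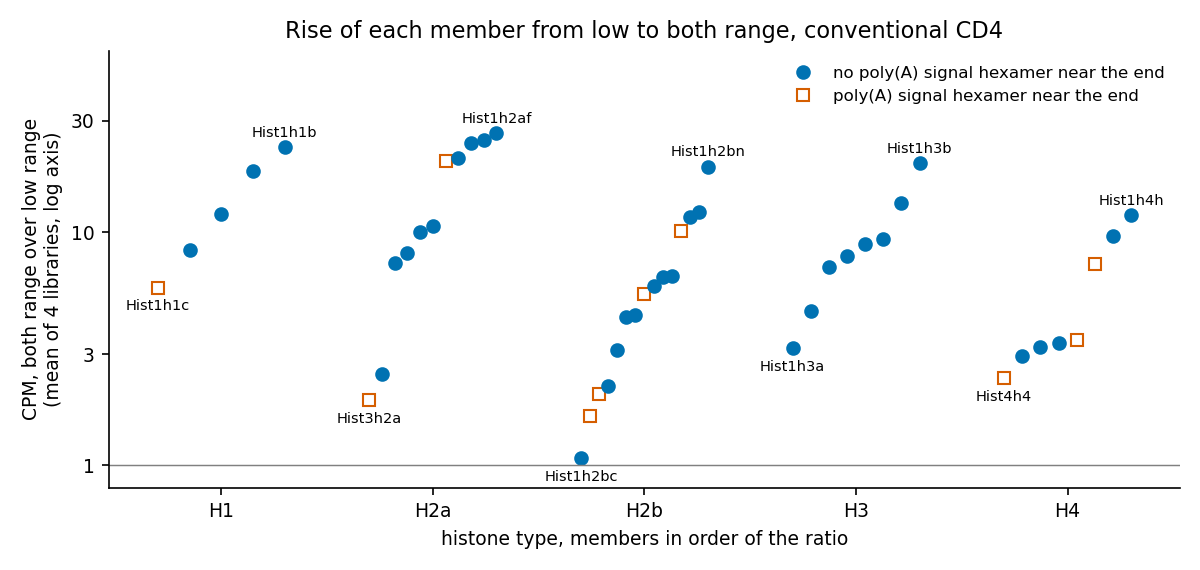
Ratio of CPM in the both range to the low range for each member with at least 20 low-range UMIs in conventional CD4 cells (vertical axis, log scale, mean of 4 libraries in each range), in order within each histone type (horizontal axis); open squares have AATAAA in the last 40 bases of an annotated transcript. The ratio runs from 1.08 for Hist1h2bc to 26.6 for Hist1h2af.

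Members differed in how strongly they followed the ranges. Hist1h2bc, an H2b gene known to give polyadenylated mRNA in differentiated cells as well, was the flattest, at 14.1, 16.5, 9.96 and 16.2 CPM in the low range of conventional CD4 cells and at 17.7, 13.8, 12.2 and 17.3 CPM in the both range, a ratio of 1.08. Next came Hist2h2be at 1.63, Hist3h2a at 1.90 and Hist3h2ba at 2.03. Hist1h4i, with 29.3 CPM in the low and 86.5 CPM in the both range on average, rose 2.95-fold, while Hist1h4d rose 9.61-fold, Hist1h1b 23.1-fold and Hist1h2ap 24.0-fold. The 10 members with AATAAA in the last 40 bases and at least 20 low-range UMIs had a median ratio of 4.45 (1.63 to 20.2), and the 37 without it a median of 8.42 (1.08 to 26.6). The ranges of these sets overlap, Hist1h2ae with AATAAA rose 20.2-fold, and no test was made. A member counted as without AATAAA may hold it beyond its annotated end.

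This comparison shares its conventional CD4 sums with that of Treg-origin cells. Between conventional CD8 and CD4 cells, 13 of 57 members rose in CD8 cells and 6 fell (edgeR, 11490 genes tested), shares no higher than those of all genes, of which 22.9% rose and 23.7% fell. The median log2 ratio was 0.04. Hist1h4i differed most of those that rose, at 77.3, 73.6, 77.3 and 80.7 CPM in CD8 cells against 59.2, 58.6, 59.1 and 59.7 CPM, a log2 ratio of 0.40 (SD 0.04, adjusted p = 3.1e-07) with no overlap. Hist1h1a rose by 0.33 (SD 0.06), Hist2h2aa1 by 0.26 (SD 0.16), Hist1h2ap by 0.23 (SD 0.05), Hist1h2ae by 0.17 (SD 0.03) and Hist1h1b by 0.16 (SD 0.04). The 6 that fell were the H2b genes Hist1h2bl (by 0.44, SD 0.24), Hist3h2ba (by 0.33, SD 0.14) and Hist1h2bj (by 0.10, SD 0.05), the H2a gene Hist3h2a (by 0.21, SD 0.06) and the H3 genes Hist1h3a (by 0.18, SD 0.19) and Hist1h3c (by 0.14, SD 0.06). The summed H2a ratio was 0.18 ± 0.03, H4 0.14 ± 0.04 and H1 0.12 ± 0.04, whereas H3 was at -0.02 ± 0.03 and H2b at -0.06 ± 0.04 (log2, SD, n = 4). Of the 30 replication genes 29 rose and 1 fell, of the 30 mitosis genes 17 rose and 1 fell, and of 14 chaperone genes 11 rose.

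Within single ranges the class differences took other directions. In the low range, the summed log2 ratio of CD8 to CD4 cells was 0.35, 0.87, 0.76 and 1.05, and 21 of 35 members rose and none fell (16.1% of all genes rose). In the replication range, 11 of 48 rose and none fell (9.72% of all genes rose and 10.1% fell), by 0.18 (Hist1h1c) to 0.56 (Hist2h2aa1). In the mitosis range 18 of 55 fell (12% of all genes fell) and only Hist1h4i rose, by 0.38 (11.4% rose). In the both range the summed ratio was -0.34, -0.23, -0.25 and -0.30, and 32 of 57 fell and none rose (12.7% of all genes fell). The change of the class ratio from the low to the both range was tested as an interaction: 28 of 55 members shifted down and none up (7.41% of all genes shifted down and 2.4% up), with a median shift of -0.94 on the log2 scale. Hist1h2bn shifted by -1.82, Hist1h2af by -1.72, Hist1h2ap by -1.62, Hist1h1a by -1.61 and Hist1h1b by -1.50.

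**Figure D4:**
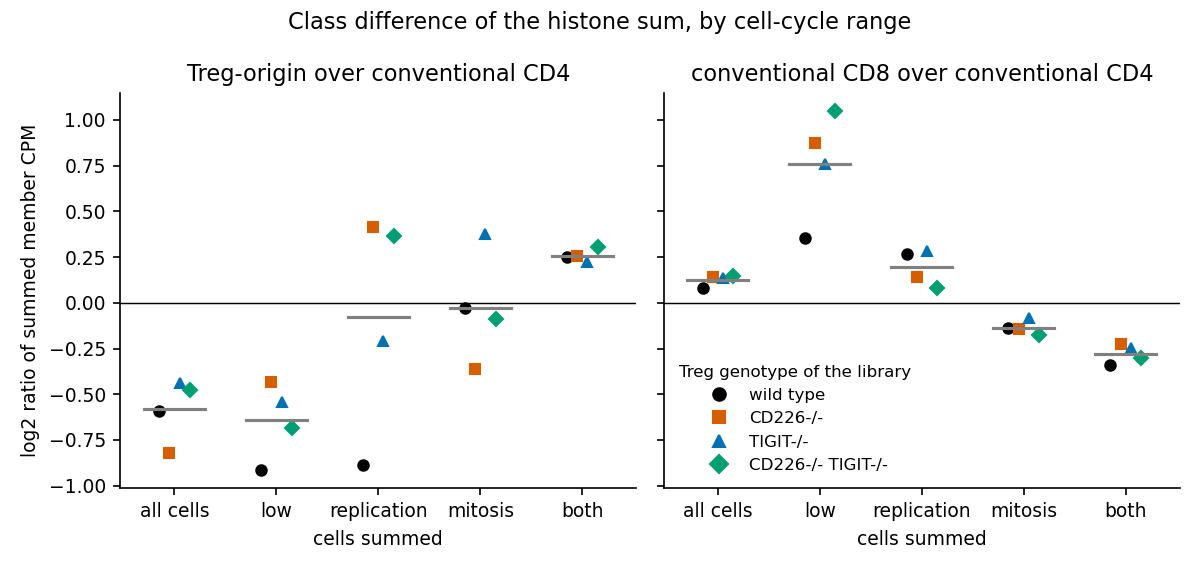
Log2 ratio of the summed member CPM (vertical axis) of Treg-origin over conventional CD4 cells (left) and of conventional CD8 over conventional CD4 cells (right), over all cells and within each cell-cycle range (horizontal axis); points are libraries and grey bars their means. For CD8 cells the means are 0.76 in the low and -0.28 in the both range, and for Treg-origin cells -0.64 and 0.26.

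For Treg-origin cells the shift was the other way. In the low range 11 of 25 members fell against conventional CD4 cells and none rose (15.6% of all genes fell), Hist1h2ap by 2.27 and Hist1h1b by 1.63. Only Hist1h1a, down by 0.78, passed in the replication range, of 40 tested (3.41% of all genes fell and 4.66% rose). In the mitosis range Hist1h1a fell by 1.19 and Hist1h1b by 0.29, of 46 tested (4.08% fell and 5.87% rose). In the both range 8 of 52 rose (4.55% of all genes rose), by 0.18 (Hist1h1b) to 1.05 (Hist2h2aa1), and Hist1h1a fell by 0.70 (3.52% of all genes fell). The interaction called 7 of 53 members up and none down (1.91% of all genes up), among them Hist1h2ap by 2.54 and Hist1h1b by 1.76, with a median of 0.91. Hist1h1a, down by 1.49 in the low range, passed the test in each of the 4 ranges with unthinned cells. It stood at 58.1, 51.5, 66.7 and 31.2 CPM in the both range, against 86.0, 79.7, 88.9 and 83.6 CPM in conventional CD4 cells, without overlap. Its Treg-origin UMIs were few, 7 in the low and 60 in the both range over the 4 libraries. In the low range Hist1h1a could pass the filter on low counts through conventional CD4 cells alone, which favours a fall. That call is therefore not separate support. The Treg-origin ranges beyond the low one held 124 to 196 cells in all.

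Scores still differed between the classes within a range, and depth did too. In the low range the median replication and mitosis UMIs per 2000 were 1 and 0 in Treg-origin, 2 and 1 in conventional CD4 and 3 and 2 in conventional CD8 cells; in the both range they were 12 and 17, 12 and 15, and 11 and 13. The order of these medians within the low and within the both range is that of the histone differences given above, except that Treg-origin and conventional CD4 cells had the same replication median in the both range; their part in the result was not tested. With cells thinned to 2000 UMIs, the CD8 to CD4 comparison called 7 of 18 members up and none down in the low range (9.92% of all genes up and 9.09% down). In the both range it called none up and 16 of 36 down (4.94% up and 5.54% down). The Treg-origin comparison then called none up and 3 of 14 down in the low range (12.7% of all genes up and 11.2% down). It called 1 of 30 up and none down in the both range (1.93% up and 1.74% down).

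Between libraries, the wild-type library stood apart in the summed H2a, of which Hist1h2ap was the largest part, and hardly in the summed H1. In conventional CD4 cells H2a summed to 1793, 1313, 1260.5 and 1135 CPM and H1 to 1747, 1618, 1626 and 1602 CPM. There the H2a gene Hist1h2ae was less set apart, at 391, 326, 329 and 268 CPM. The H1 gene Hist1h1e was also highest in the wild-type library, at 454, 399, 380 and 406 CPM. Hist1h2ap, the H2a gene with most UMIs, stood at 1100.1, 729, 657 and 613 CPM in conventional CD4 and at 1231, 844, 777 and 741 CPM in conventional CD8 cells. The wild-type value was 1.65-fold the mean of the other 3 in conventional CD4 cells, 1.56-fold in conventional CD8 cells and 1.68-fold in Treg-origin cells. With 1 library per genotype, this is a difference between libraries. Whether these 3 ratios differ was not tested.

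The ratio of Hist1h2ap to Hist1h1b UMIs put the wild-type library first in every class and range. It was 1.08, 0.741, 0.656 and 0.644 in conventional CD4 cells, 1.14, 0.767, 0.694 and 0.685 in conventional CD8 cells and 1.23, 0.857, 0.869 and 0.735 in Treg-origin cells. Cells between the antibody cuts had 1.12, 0.770, 0.698 and 0.713, and barcodes that failed the cell filter 0.944, 0.739, 0.661 and 0.673. Over all cells of each class, the CD226-/- library, which carries the lane tag of the wild-type library, stood nearer to the TIGIT-/- libraries. In the Treg-origin mitosis range, at 1.55, 1.42, 1.006 and 0.846, and in the conventional CD8 low range, at 1.11, 0.945, 0.657 and 0.680, it stood nearer to the wild-type library.

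**Figure D5:**
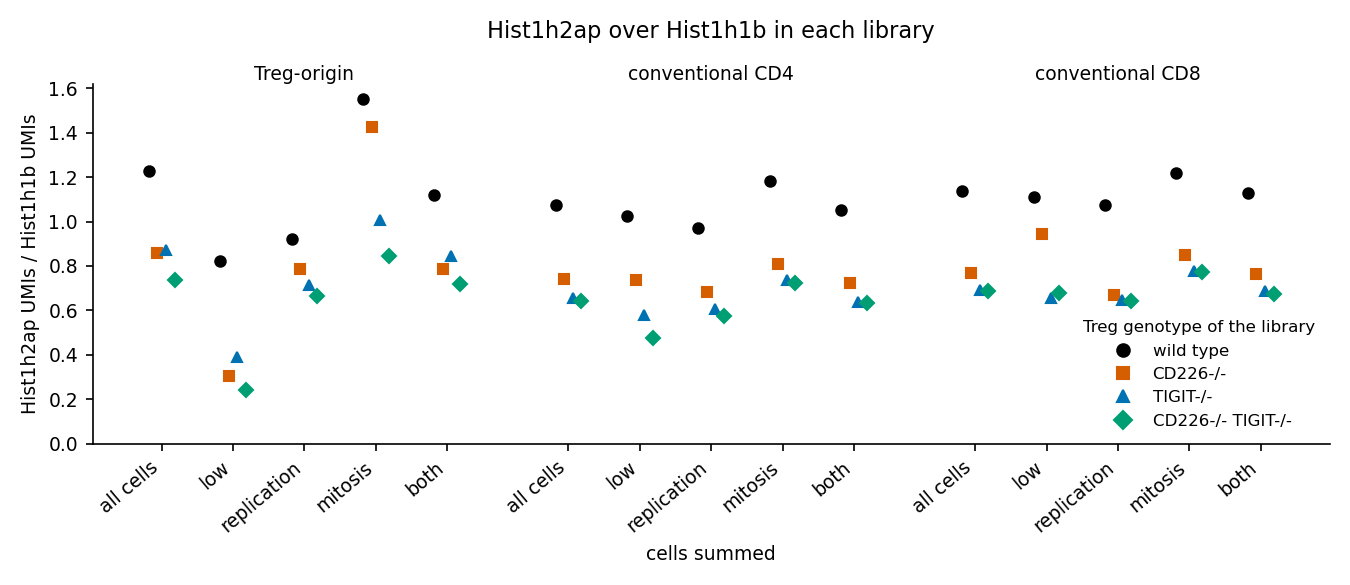
Ratio of Hist1h2ap UMIs to Hist1h1b UMIs (vertical axis) in each library, over all cells of a class and within each range (horizontal axis). The wild-type point is the highest of the 4 in all 15 sets of cells, at 1.08 in conventional CD4 cells against 0.644 to 0.741 in the other libraries.

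The split by TIGIT status and lane tag was smaller than the split by range. Summed over the members, the mean of both TIGIT-/- libraries over the mean of both TIGIT+/+ libraries was -0.18 on the log2 scale in conventional CD4 cells (95% counting interval -0.18 to -0.17), -0.14 in conventional CD8 cells (-0.15 to -0.14) and 0.06 in Treg-origin cells (0.02 to 0.10). With each range given equal weight the Treg-origin value was -0.043, and with thinned cells it was 0.27. With equal weights the 4 library sums came to 4126, 3587, 3289 and 3509 CPM in conventional CD4 and to 4041, 3873, 3714 and 3968 CPM in Treg-origin cells. Over the same conventional CD4 cells, the both range exceeded the low range by 3.46, 3.92, 3.55 and 3.73 on the log2 scale. Of the members at 5 CPM or more in conventional CD4 cells, 3 of 36 were lower in both TIGIT-/- libraries than in both others (Hist1h2ap, Hist1h3f and Hist1h4h; 15.2% of all such genes) and Hist1h2af was higher (12.2% of all such genes).

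In Treg-origin cells, where the genotype differs, 13 of 35 members were higher in both TIGIT-/- libraries (19.6% of all such genes), Hist1h4d and Hist1h3c among them, and none was lower (14.1%). With equal weights for the ranges, 15 of 39 were higher (19.8%) and 2 lower (14.3%). Hist1h4d stood at 82.4, 75.5, 104.6 and 111 CPM and Hist1h3c at 49.9, 33.8, 60.7 and 51.2 CPM. The share of Treg-origin cells in the low range was 67.1%, 77.1%, 59.3% and 68.6%. This low-range share did not separate the TIGIT-/- libraries from the others. The mitosis range held 12.5%, 9.52%, 16.8% and 15.3% of Treg-origin cells, more in both TIGIT-/- libraries than in both others. Its part in the member counts was not tested. The low-range share was higher in both CD226-/- than in both CD226+/+ libraries, here and in both conventional classes. Both CD226-/- libraries were lower than both CD226+/+ libraries for 11 of 35 members in Treg-origin cells (18.9% of all such genes) and for 16 of 36 in conventional CD4 (21.4%) and 14 of 35 in conventional CD8 cells (22.2%). Given equal weights for the ranges, these counts were 6 of 39 (17.2%), 4 of 36 (19.5%) and 8 of 34 (21.1%). In Treg-origin cells 6 of 39 were then higher in both CD226-/- libraries (17.2%), against 1 of 35 as summed (17.6%). The wild-type library was highest for 8 of 35 members in Treg-origin cells (20.9% of all such genes), and for 8 of 39 with equal weights (20.9%). It was highest for 23 of 36 members in conventional CD4 cells (26.4% of all such genes), and for 23 of 36 with equal weights for the ranges (27.1%).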

How the data were processed

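The deposited values are UMI counts per gene and barcode of 4 droplet libraries, with counts of 2 antibodies, made by the authors with Cell Ranger 3.1.0 and the mm10 genome, per the submitters' processing notes. Per the labels, donor T cells were sorted from recipient spleens. A barcode was kept when 500 or more genes were detected and no more than 10% of its UMIs were mitochondrial; kept barcodes held 82630541 to 86675591 UMIs per library. Counts were summed per class, range and library, and given as CPM with exact 95% Poisson intervals, which cover counting error only. The members, lists and ranges were chosen with earlier results of these data known. Sums were tested with edgeR 4.0.16 in R 4.3.3 (TMM, filterByExpr, quasi-likelihood, library as block, Benjamini-Hochberg over all genes, adjusted p of at most 0.05); DESeq2 1.42.0 was an alternative. Nothing says that the libraries come from separate experiments, so p-values measure only the spread between them. Cells holding markers of other cell types, thinning within ranges and the interaction were added after seeing the data. No doublet caller was run; an alternative left out the 5% of cells with most UMIs. On simulated data for Treg-origin over conventional CD4 cells, the test found 33 of 50 genes changed 1.5-fold and 45 of 50 changed 2-fold among 10625 genes, with 13 false among 186 calls. Genes named are the 3 members of each type with most UMIs, up to 10 called members with the largest change, and up to 4 genes of each other list, all by a written rule; other names were chosen after their values were seen. Hist1h2be and Hist1h1e overlap by 496 bases on 1 strand, so their counts are uncertain.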

Additional observations from a re-analysis of the deposited data

Results flagged for a closer look

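The class difference of the histone sum differed between cell-cycle ranges. For conventional CD8 over conventional CD4 cells the mean log2 ratio was 0.76 in the low range and -0.28 in the both range, and the interaction of class and range called 28 members. For Treg-origin over conventional CD4 cells the means were -0.64 and 0.26, and the interaction called 7 members. The median scores that sort the cells differed between the classes within these ranges as well, and their part in the shift was not tested.

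Histone UMIs were also present in barcodes outside the 3 classes compared. The members summed to 2188 to 3154 CPM in barcodes that failed the cell filter, to 2767 to 3477 CPM in cells between the antibody cuts, and to 2875 to 3965 CPM in conventional cells with equal or no Cd4 and Cd8 UMIs. The wild-type library was the highest in each of these sets.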

How the results depend on the processing

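No labels number replicates, so the library served as the block. Of the alternative counts and ratios that answer a comparison, 112 kept their direction and size, 38 moved and 7 reversed. For Treg-origin over conventional CD4 cells (27 members called), stricter antibody ratios gave 13. Within the low, replication, mitosis and both ranges 11, 1, 2 and 9 (8 higher) were called, and with thinned cells 3, 0, 0 and 1 (higher). For conventional CD8 over CD4 cells (19 called), DESeq2 gave 10 and the fit with no replicate block 7 (22 for Treg-origin cells). Within the replication, mitosis and both ranges 11, 19 (18 lower) and 32 (all lower) were called, and with thinned cells 7, 4, 4 (3 lower) and 16 (all lower) from the low to the both range.

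For replication over low, thinning gave 23 (conventional CD4), 22 (CD8) and 4 (Treg-origin), percentile limits 24 (CD8) and 5 (Treg-origin), stricter antibody ratios 7 and no low-count filter 27 (Treg-origin). For replication over mitosis, thinning gave 27, 23 and 4 in the same order. In Treg-origin cells DESeq2 gave 5, stricter antibody ratios 3, and leaving out a library 4 to 15. Fewer genes or cells were tested under thinning and stricter ratios; the cause of the other moves was not tested. Most counts under alternatives, here and in the paragraph before, stand without the share over all genes in the same setting. They show how far the number of calls moved, and not whether members still exceeded other genes.

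The TIGIT log2 ratio of all members became -0.043 (equal range weights) and 0.27 (thinned) in Treg-origin cells, -0.21 without the cells with most UMIs in conventional CD4 cells, and -0.15 and -0.13 (equal weights, thinned) in conventional CD8 cells. The log2 ratio of Hist1h2ap in the wild-type library to the others, 0.75, 0.72 and 0.64 in Treg-origin, conventional CD4 and CD8 cells, became 0.49 and 0.87 (equal weights, stricter cell filter) in Treg-origin cells. It became 0.69, 0.77 and 0.75 (equal weights, thinned, without the cells with most UMIs) in conventional CD4 cells, and 0.62, 0.67 and 0.67 (equal weights, stricter filter, without the cells with most UMIs) in conventional CD8 cells.

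Of 713 values of single genes under alternatives, 586 kept direction and call, 89 lost the call and 38 reversed, 36 of these within single ranges. For Treg-origin cells the log2 ratio in the both range was 0.18 (Hist1h1b), 0.25 (Hist1h1e), 0.21 (Hist1h1c), 0.37 (Hist1h2ap), 0.12 (Hist1h2ae), 0.064 (Hist1h2ab), 0.34 (Hist1h2af), 0.39 (Hist1h2bj), 0.31 (Hist1h3e) and 0.17 (Hist1h4d). In the mitosis range it was 0.10 (Hist1h1c), 0.15 (Hist1h2ap), 0.016 (Hist1h2ab), 0.26 (Hist1h2bj), 0.044 (Hist1h3e), 0.14 (Hist1h4d) and 0.10 (Hist1h4i). It was 0.0012 (Hist1h2ap) and 0.47 (Hist1h2bj) in the replication range, and 0.10 (Hist1h1c) and 0.056 (Hist1h4d) in the low range. For conventional CD8 cells it was -0.29 (Hist1h1b), -0.21 (Hist1h1a), -0.20 (Hist1h2ap), -0.26 (Hist1h2ae) and -0.10 (Hist2h2aa1) in the both range. The mitosis range gave -0.11 (Hist1h1b), -0.037 (Hist1h2ap), -0.085 (Hist1h2ae) and -0.036 (Hist2h2aa1). The low range gave 0.023 (Hist3h2a), 0.047 (Hist1h2bj), 0.47 (Hist1h3c) and 0.10 (Hist1h3a), the replication range 0.15 (Hist3h2a) and 0.046 (Hist3h2ba), and thinned cells 0.075 (Hist1h2bj) and 0.0099 (Hist1h3c).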
